A study of Mus musculus with 6 samples.

Results

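The comparison described here set the library labelled H2A.Z KD against the H2A.Z WT library, both made from undifferentiated mouse embryonic stem cells (ESCs, D0). Its members were the entries of the deposited RNA-Seq table with at least 1 RPKM (a read density scaled by the length of the transcript and the size of the library) in either library, 12067 of 21639 entries, and 6130 of these had at least 10 RPKM and are called well expressed below. Each entry is usually 1 gene, and the difference was taken as log2((RPKM + 1)/(RPKM + 1)), a scale that understates the change of low genes. An entry was counted as higher or lower when its ratio on this scale passed 1.5-fold (0.58 in log2). There was 1 library per condition, so the differences below were not checked in replicates and no test across genes was possible.

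The cells were mouse ESCs labelled V6.5, a male line from 129SvJae and C57BL/6, while the submitters describe the transgenic lines as made in KH2 ESCs. H2A.Z KD cells carried a lentiviral short hairpin against the endogenous H2A.Z transcript, under blasticidin selection. H2A.Z WT cells carried the hairpin too, together with a YFP-tagged wild-type H2A.Z that is switched on by doxycycline (1 µg/ml) through an rtTA-driven promoter, and they had been sorted for YFP. H2A.Z AP3 cells, whose values are given beside the others, were built in the same way with an H2A.Z altered at 3 residues of the acidic patch. By the methods the hairpins were put into ESCs that already held an inducible transgene, but which transgene, if any, was in the cells under the KD label, and whether they received doxycycline or were sorted, is not given in the sources used here. Differences of this kind cannot be told apart from that of the label. The ESCs were grown in serum and LIF, and their last passage was without feeder cells. The same lines were also profiled as embryoid bodies (EBs, D3), again with 1 library each.

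H2A.Z is a variant of the core histone H2A that takes the place of H2A in nucleosomes at promoters and other regulatory elements, where it is loaded by the SRCAP and TIP60-p400 remodelers. Mammals have a pair of genes for it, *H2afz* and *H2afv*. In ESCs it lies at active promoters and at the bivalent promoters of developmental genes, and mouse embryos without *H2afz* die around implantation.

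The hairpins are shown first because they define the line. The submitters list a pair of 21-base oligos, and the labels do not say which was used for a library. The oligo names printed here are those of the labels, and the methods of the study number the same oligos differently. Both matched the transcribed strand of *H2afz* without a mismatch on mm9. All bases are in capitals because all of them matched.
sh#2: AACAGCTGTCCAGTGTTGGTG
sh#5: AATTAGCCTTCCAACCAACCA
The first lies at chr3:137529455-137529475 and the second at chr3:137529551-137529571 (+ strand), 44 and 140 bases past the stop codon in the 3′ untranslated region of the last exon. The 2 oligos matched 4 and 5 places of the genome in all, including the *H2afz* site. A transgene without this region would not be targeted, and reads from its coding part would be counted as *H2afz*.

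*H2afz* was at 279 RPKM in the H2A.Z WT library and 343 RPKM in the library labelled H2A.Z KD, a log2 difference of 0.30. In H2A.Z AP3 ESCs it was at 304 RPKM, and at D3 the WT, KD and AP3 libraries had 258, 236 and 394 RPKM. These values hold reads from endogenous *H2afz* and from the coding part of any transgene, which cannot be told apart in the table, so they do not give the level of the targeted transcript and do not check the label. Every direction below is that of a library labelled H2A.Z KD. *H2afv*, which encodes the second H2A.Z protein, was at 52.2 and 57.2 RPKM (log2 0.13). Among 29 genes for H2A.Z, related variants and their exchange machinery the median log2 was 0.04, with 1 (3.45%) higher, against 1.65% of all members, and 0 lower. The higher member was *H2afy2*, which encodes the histone variant macroH2A2, at 8.90 RPKM in WT and 13.9 RPKM in the library labelled KD (log2 0.59), just past the threshold.

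Most well expressed genes were at the same level in both libraries. Over all 12067 members the median log2 was -0.03, with quartiles of -0.18 and 0.12, and 199 entries (1.65%) were higher and 246 (2.04%) lower in the library labelled KD. Among the 6130 well expressed entries the median was -0.01, and 55 (0.897%) were higher and 70 (1.14%) lower. An entry that reached 10 RPKM in 1 library alone could pass only in the direction of that library, and of the 5645 entries that reached it in both 34 (0.602%) were higher and 39 (0.691%) lower. The share past 1.5-fold decreased with level, from 6.22% of the entries between 1 and 3 RPKM to 1.05% of the 669 entries at 100 RPKM or above. The table holds no read counts, and from the steps between low RPKM values the depth was estimated at 19.02 M reads for WT and 19.9 M for the library labelled KD. At this depth a gene of 10 RPKM with a 2 kb transcript has about 380 and 398 reads, and counting error alone gives its log2 difference a standard error of 0.10, against 0.33 at 1 RPKM. That error covers counting only, not the spread between cultures.

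The entries past the threshold are of unlike kinds. Of the 199 higher entries, 74 were small RNA genes that are not polyadenylated (snoRNAs, scaRNAs, microRNA precursors, 4.5S RNA and similar) and 22 were replication-dependent histone genes. The remaining 11826 entries had 103 higher and 199 lower. Among well expressed entries these remaining genes gave 36 higher and 57 lower. The libraries were made from oligo(dT)-selected RNA, so the small RNA and histone values depend on what escaped that selection.

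**Figure D1:**
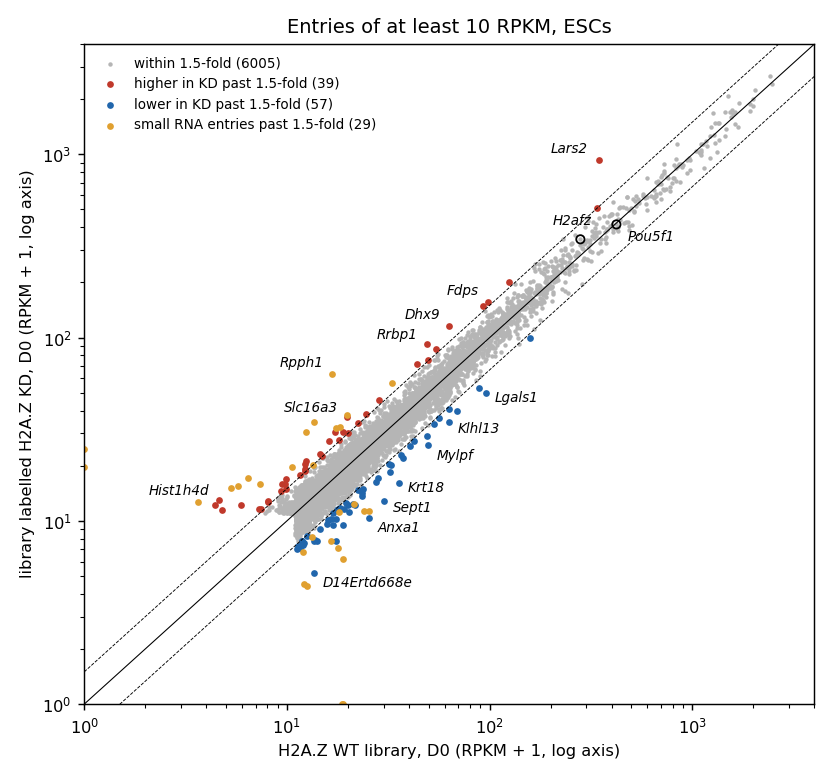
RPKM + 1 of the 6130 well expressed entries in the H2A.Z WT library (x) and the library labelled H2A.Z KD (y), both at D0 and on log axes. The solid line marks equal values and the dashed lines 1.5-fold. Red points (39) are higher and blue points (57) lower past 1.5-fold, small RNA entries past it (29) are in yellow, and the open circles mark H2afz and Pou5f1.

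*Lars2*, the mitochondrial leucyl-tRNA synthetase (chr9:123276058-123371782, + strand, 21 exons), had the largest absolute difference of the named genes. It was at 345 RPKM in WT, 932 RPKM in the library labelled KD and 352 RPKM in AP3, a 2.71-fold difference between the first 2 (log2 1.43). At D3 the order was turned, with 401 RPKM in WT and 208 RPKM under the KD label. The library labelled KD at D0 was the highest of the 6, and the other 5 lay between 208 and 401 RPKM. None of the other 16 entries for mitochondrial tRNA synthetases passed 1.5-fold, with log2 values from -0.55 to 0.23, and their WT levels, from 2.02 to 26.7 RPKM, were all far under that of *Lars2*. *Lars*, its cytoplasmic counterpart, was at 80.9 and 102 RPKM (log2 0.33).

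Apart from 3 H4 genes, the other large increases among well expressed genes came from single genes of varied function. Of the 15 largest, 6 reached 10 RPKM through the library labelled KD alone, *Stra8*, *Cxcl1*, *Prex2* and 3 H4 genes. *Stra8*, a retinoic acid-induced gene needed for entry into meiosis, was at 4.96 RPKM in WT and 11.2 RPKM under the KD label (log2 1.03), against 1.72 RPKM in AP3. *Rrbp1*, a ribosome-binding protein of the endoplasmic reticulum, was at 48.0 and 91.0 RPKM (log2 0.91). *Dhx9*, an RNA helicase, was at 62.0 and 115 RPKM (log2 0.88), and AP3 was close to WT at 56.7 RPKM. *Slc16a3*, which exports lactate, was at 18.7 and 35.7 RPKM (log2 0.90), and *Tcf15*, a basic helix-loop-helix factor of the paraxial mesoderm, at 16.3 and 29.6 RPKM (log2 0.82). *Trh*, the precursor of thyrotropin-releasing hormone, was at 42.8 and 70.8 RPKM (log2 0.71).

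Of the remaining genes among the 15 largest increases, *Hist1h4d*, *Hist1h4f* and *Hist1h4a* are described with the histones below. *Cxcl1*, a chemokine, was at 8.94 and 15.9 RPKM and *H2-K1*, a class I histocompatibility gene, at 11.5 and 20.1 RPKM. *Ccdc12* (15.1 and 26.1 RPKM), *Prex2*, an activator of Rac (8.45 and 14.8 RPKM), and *Jmjd6*, a dioxygenase (11.3 and 19.5 RPKM), had log2 values between 0.73 and 0.76. At 100 RPKM or above 6 entries were higher, *Lars2*, *Dhx9*, *Nhp2*, *Fdps*, *Taf15* and *Anp32b*, and the last of these, a histone-binding protein, was at 337 and 509 RPKM (log2 0.59). *Taf15*, an RNA-binding protein of the FET family, was at 91.7 and 147 RPKM (log2 0.68).

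Of 27 members of the list of actin, smooth muscle and SRF or YAP target genes, 6 (22.2%) were lower in the library labelled KD, against 2.04% of all members, and 0 were higher. *Anxa1*, which encodes a calcium-dependent phospholipid-binding protein, was at 24.3 RPKM in WT, 9.41 RPKM in the library labelled KD and 28.0 RPKM in AP3 (log2 -1.28 for KD against WT). *Tagln*, an actin-binding protein of smooth muscle, was at 16.4 and 6.74 RPKM (log2 -1.17) and *Acta2*, smooth muscle actin, at 12.6 and 6.76 RPKM (log2 -0.81). *Anxa2* (36.4 and 21.1 RPKM), *Anxa3* (9.79 and 4.97 RPKM) and *S100a6* (22.6 and 12.7 RPKM), an annexin partner, were lower as well. These were the 6 genes past 1.5-fold. This list, like the others, was chosen with earlier results of these data known. The list's median log2 was -0.24, against -0.03 over all members, and 24 of the 27 lay under 0.

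Other members of this list were nearer to equal. *Ctgf* and *Cyr61*, both targets of YAP, were at 88.8 and 65.0 RPKM (log2 -0.44) and at 115 and 96.7 RPKM (log2 -0.25). *Tpm1*, a tropomyosin, was at 89.1 and 71.7 RPKM (log2 -0.31). *Srf*, the serum response factor, was at 16.9 and 20.7 RPKM (log2 0.28). The cytoplasmic actins were even, *Actb* at 958 and 957 RPKM and *Actg1* at 663 and 704 RPKM.

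Embryonic fibroblasts had served as feeder cells in earlier passages. Of 27 fibroblast markers with an entry, 22 were members, 3 above 0 and 19 under 0, with a median of -0.27, and 2 (9.09%) were lower, against 2.04% of all members. The genes past the threshold were *Vim*, vimentin, at 87.1 and 52.2 RPKM and *Prrx1*, a mesenchymal homeobox factor, at 4.86 and 2.89 RPKM. The summed level of the list was 233 RPKM in WT, 171 RPKM under the KD label and 320 RPKM in AP3 ESCs, and in EBs 94.8, 67.8 and 112 RPKM. *Vim* alone gave 87.1, 52.2 and 107 RPKM of the ESC sums, so 1 gene weighs heavily in them. *Col1a1* was at 9.76 and 7.42 RPKM, *Col1a2* at 12.9 and 11.8 RPKM, and *Thbs1*, *Fstl1* and *S100a4* at 16.8 and 11.6 RPKM, 30.9 and 24.5 RPKM and 8.87 and 5.85 RPKM. The 3 members above 0 were *Thy1* (1.74 and 2.42 RPKM), *Igfbp4* (8.38 and 9.73 RPKM) and *Tgfbi* (2.77 and 3.29 RPKM). *Dcn* (0.321 and 0.178 RPKM), *Lum* (0 and 0.0352 RPKM) and *Postn* (0.112 and 0.0169 RPKM) were near 0 in both libraries. The part of such cells in the 6 lower genes of the actin list was not tested, and in bulk RNA fewer cells of a type cannot be told apart from less RNA per cell.

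The simple epithelial keratins *Krt8* and *Krt18* were lower too. *Krt7* (4.11 and 2.44 RPKM, log2 -0.57) and *Krt19* (4.85 and 3.20 RPKM, log2 -0.48) did not pass 1.5-fold. *Krt18* was at 34.6 RPKM in WT and 15.1 RPKM in the library labelled KD (log2 -1.14), and *Krt8*, its pairing partner on the same stretch of chromosome 15, at 31.1 and 17.5 RPKM (log2 -0.80). AP3 ESCs were near the KD label at 14.4 and 18.5 RPKM. In EBs the KD label was level with or above WT, at 64.4 and 68.4 RPKM for *Krt18* and 31.0 and 41.7 RPKM for *Krt8*. Of 19 trophectoderm genes with an entry, 13 were members, and 4 of these (30.8%, against 2.04% of all members) were lower and 0 higher. The 4 were *Krt8*, *Krt18*, *Tead4* (9.29 and 5.72 RPKM) and *Hand1* (1.75 and 0.704 RPKM). *Hand1* and *Ascl2* passed the filter through the WT library alone. The list's median was -0.44, and for the 11 genes that reached 1 RPKM in each library it was -0.21 with 3 lower. *Cdx2*, the factor that defines the trophectoderm, was under 1 RPKM in both libraries (0.243 and 0.162 RPKM). In the list of epithelial and mesenchymal genes 4 of 22 (18.2%, against 2.04% of all members) were lower, *Krt8*, *Krt18*, *Vim* and *Cd44*. The first 3 are also counted in the lists above, and *Cd44* was at 8.36 and 5.15 RPKM. *Cdh1*, E-cadherin, was even at 96.1 and 96.9 RPKM.

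The remaining large decreases came from single genes of varied function. Of the 15 largest, 7 reached 10 RPKM through the WT library alone, *D14Ertd668e*, *Anxa1*, *Tagln*, *Igf2*, *Pecam1*, *Inpp5d* and *Acta2*. *D14Ertd668e* was at 12.6 and 4.20 RPKM (log2 -1.38). *Sept1*, a septin, was at 29.2 and 11.8 RPKM (log2 -1.24). Its symbol is stored as a date in the table, and it was identified by its position, chr7:134357956-134361959 on mm9. Its neighbour *Mylpf*, a myosin light chain of fast muscle, is transcribed towards it and ends just before that start, and was at 48.5 and 24.9 RPKM (log2 -0.94). *Lgals1*, galectin-1, was at 94.6 and 49.1 RPKM and *Klhl13*, an adaptor of CUL3 ubiquitin ligases, at 61.9 and 33.5 RPKM. *Igf2*, the imprinted growth factor, was at 17.8 and 8.46 RPKM (log2 -0.99).

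The same group held *Pecam1*, an adhesion molecule of naive ESCs (13.1 and 6.77 RPKM), *Inpp5d*, the phosphatase SHIP1 (15.96 and 8.48 RPKM), *Dcxr*, a carbonyl reductase (19.3 and 10.2 RPKM), and *Ctnnal1*, a relative of alpha-catenin (20.7 and 11.1 RPKM). Their log2 values lay between -0.85 and -0.84. At 100 RPKM or above *Txnip*, an inhibitor of thioredoxin that responds to glucose, was the only lower entry, at 157 and 97.9 RPKM. It was outside the rule for named genes and was chosen after its value was seen.

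**Figure D2:**
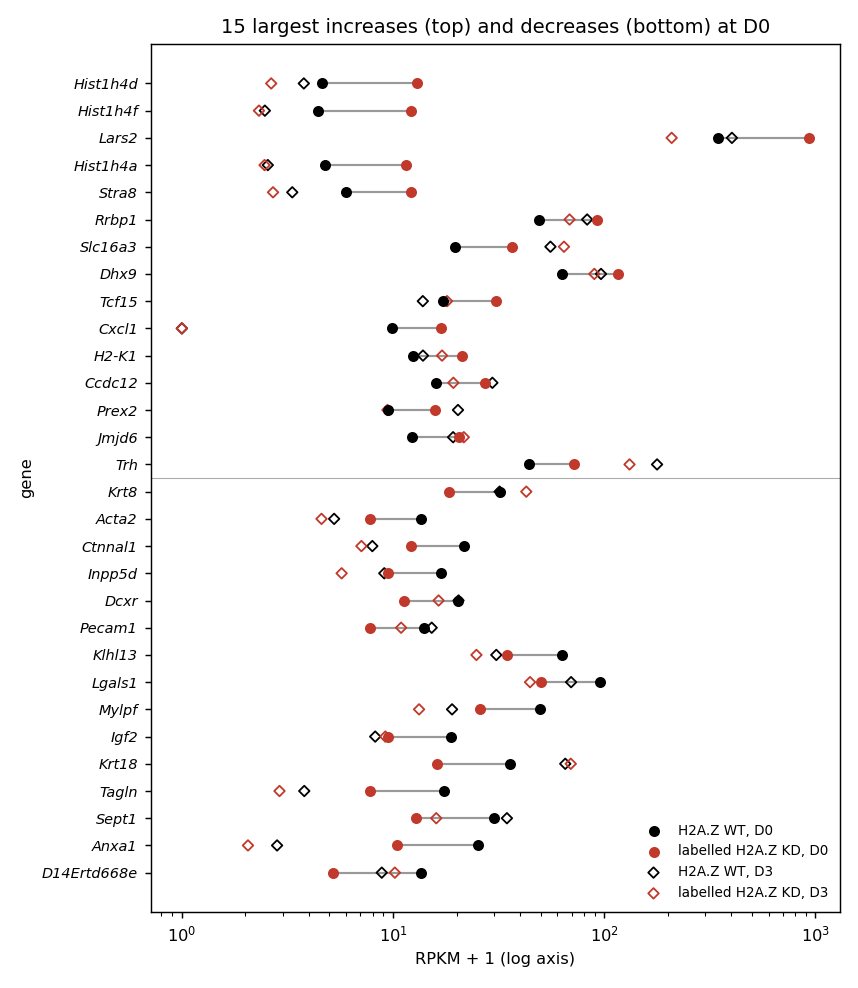
RPKM + 1 (log axis) of well expressed genes at D0, small RNAs left out, the 15 largest increases above and the 15 largest decreases below. Filled circles are D0 and open diamonds D3, black for WT and red for the label KD, 1 library each. The line joins the D0 values, and for Lars2 the D3 values lie in the opposite order.

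Of 59 replication-dependent histone entries 22 were higher, most of them under 10 RPKM in both libraries, and none of the 22 was an H2A gene. The 18 well expressed entries, 15 of them H2A genes, had a median of -0.12. The 3 that were higher, all H4 genes, reached 10 RPKM through the library labelled KD alone, which fixes their direction. The summed level of the list was 1084 RPKM in WT and 1080 RPKM under the KD label. These mRNAs are made in S phase and end in a conserved stem-loop in place of a poly(A) tail. A window of 150 bases, from 50 before to 100 after the end of each locus, was searched on the gene's strand for any 6-base stem around a 4-base loop. It was found in 43 of 59 histone entries (72.9%), against 893 of the 11689 other members with an annotated strand (7.64%). The most frequent run and those of the H4 genes with the largest differences are shown, with the stem in capitals and the loop in lower case.
most frequent: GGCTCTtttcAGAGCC
Hist1h4d: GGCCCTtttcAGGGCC
Hist1h4f: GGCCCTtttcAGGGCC
Hist1h4a: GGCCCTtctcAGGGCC
The most frequent run was in 23 histone entries and in 0 of the other members, and the run of *Hist1h4d* and *Hist1h4f* was in 7 histone entries. *Hist1h4d* and *Hist1h4f* are single-exon genes of the histone cluster on chromosome 13, at chr13:23673467-23673859 and chr13:23643127-23643517.

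The difference was largest for H4. *Hist1h4d* was at 3.60 RPKM in WT, 12.0 RPKM under the KD label and 3.08 RPKM in AP3 (log2 1.4996), and in EBs at 2.78, 1.65 and 2.76 RPKM. *Hist1h4f* was at 3.42 and 11.2 RPKM (log2 1.46) and *Hist1h4a* at 3.77 and 10.5 RPKM (log2 1.27). Of 13 H4 entries 12 were higher, and all 13 were at their highest of the 6 libraries in the one labelled KD at D0. Their median log2 was 0.87.

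The other classes gave smaller values. Of 13 H2B entries 6 were higher (median 0.57), of 11 H3 entries 2 (median 0.42) and of 4 H1 entries 2 (median 0.64), and again each of these entries had its highest value in the library labelled KD at D0. The 18 H2A entries had 0 past the threshold and a median of -0.14, and their RPKM ran from 5.68 to 173 in WT, where the other classes reached at most 4.98. Over the whole list 22 of 59 (37.3%) were higher and 0 lower, with a median of 0.46, against 1.65% and -0.03 over all members. *Hist4h4*, *Hist2h3b*, *Hist2h3c1* and *Hist1h2ba* passed the filter through the library labelled KD alone, which fixes their direction. For the 55 entries that reached 1 RPKM in each library 21 were higher and 0 lower, with a median of 0.46. At D3 the 59 entries had 1 higher and 1 lower, and a median of 0.01. These genes are near-identical copies whose shared reads the counting could split, so single entries are uncertain, and most of the 13 H4 values rest on under 10 RPKM.

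Over the 13 H4 entries the levels ran from 0.444 to 4.98 RPKM in WT, from 1.04 to 12.003 RPKM under the KD label and from 0.177 to 3.08 RPKM in AP3, so the ranges overlap while each entry was higher under the KD label than in WT. *H2afx*, a variant gene outside the list, was at 120 and 146 RPKM (log2 0.28), and the replacement genes *H3f3a* and *H3f3b*, which are polyadenylated, were at 245 and 220 RPKM and at 348 and 329 RPKM. Genes of DNA replication gave 0 of 38 past 1.5-fold, against 1.65% higher and 2.04% lower over all members, with a median of -0.01.

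**Figure D3:**
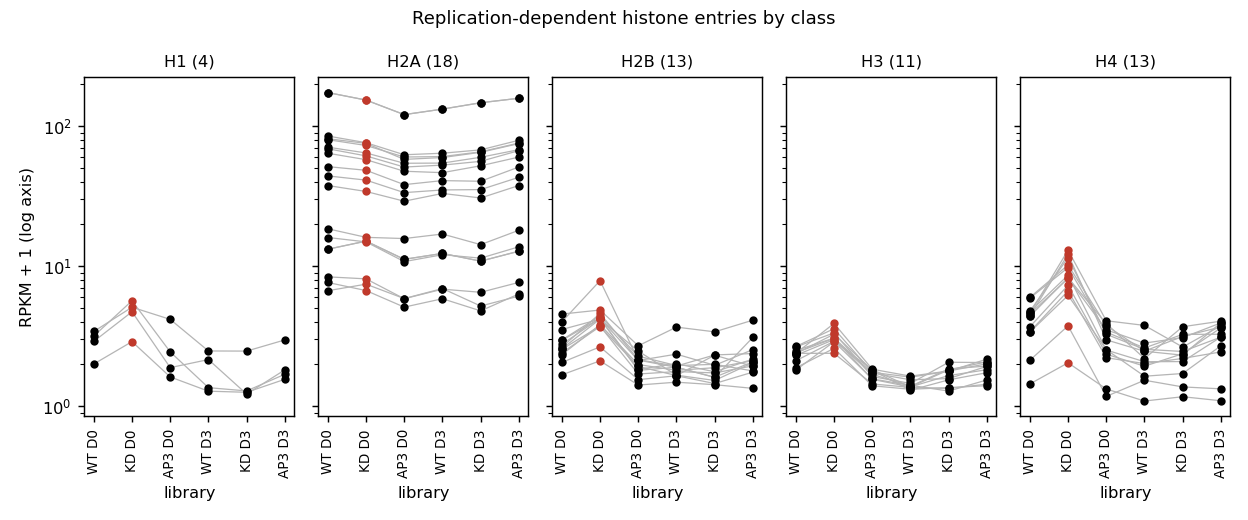
RPKM + 1 (log axis) of each replication-dependent histone entry in the 6 libraries, 1 panel per histone class with the number of entries in brackets. Grey lines join an entry's values and red points mark the library labelled KD at D0. That library is the highest for all entries of H1, H2B, H3 and H4 and for 3 of 18 H2A entries.

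Small RNA entries differed in both directions. Of 182 such members 74 were higher and 47 lower, against 1.65% and 2.04% of all members, with a median of 0.18. Among the 63 well expressed ones 16 were higher and 13 lower, with a median of -0.08. *Rpph1*, the RNA of RNase P, was at 15.8 RPKM in WT and 62.2 RPKM under the KD label, against 20.4 RPKM in AP3, and at D3 it was at 15.1 and 6.84 RPKM. *Rmrp*, the RNA of RNase MRP, was at 18.7 and 36.9 RPKM. Both are transcribed by RNA polymerase III. The 10 copies of *Rn4.5s* share a value, 2.92 and 8.03 RPKM, and count as 10 of the higher entries. Several snoRNAs were listed at 0 in 1 library and near 20 RPKM in the other, as *Snord64* (0 and 23.6 RPKM) and *Snord70* (18.0 and 0 RPKM), and a snoRNA inside an intron shares its reads with the host transcript.

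Genes of cholesterol synthesis lay to the higher side with small differences. Of 25 entries 24 were above 0, with a median log2 of 0.28 against -0.03 over all members, but only 2 (8%, against 1.65% of all members) were higher past 1.5-fold, *Fdps* among them. *Fdps*, which makes farnesyl pyrophosphate, was at 96.6 RPKM in WT, 156 RPKM under the KD label and 86.8 RPKM in AP3 (log2 0.68). *Cyp51* was at 45.3 and 64.4 RPKM and *Acat2* at 44.0 and 62.0 RPKM. In EBs, which share no library with this comparison, the same entries had a median of 0.57 and 11 were higher, against 1.38% of all members.

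Amino acid synthesis and transport genes that respond to ATF4 showed a like shift at D0. Of 38 members 33 were above 0, the median was 0.27 against -0.03 over all members, and 2 (5.26%, against 1.65%) were higher and 0 lower. *Phgdh*, the first enzyme of serine synthesis, was at 48.9 and 74.2 RPKM (log2 0.59), and *Slc7a1*, a transporter of cationic amino acids, at 11.3 and 18.1 RPKM (log2 0.64), and with a pseudocount of 5 neither passed 1.5-fold. *Psat1*, the next enzyme of the serine pathway, was just under the threshold at 132 and 194 RPKM (log2 0.55), as was *Psph* at 13.4 and 20.04 RPKM. *Atf4* itself was even at 214 and 219 RPKM, and *Ddit3*, a stress factor downstream of it, was at 18.6 and 14.8 RPKM (log2 -0.31). In EBs the median of this list was -0.20.

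Ribosome biogenesis genes had 29 of 33 members above 0 and a median of 0.20. *Nhp2*, a protein of H/ACA snoRNPs, was at 124 and 200 RPKM (log2 0.69) and the only member past 1.5-fold (3.03%, against 1.65% of all members). *Fbl*, the snoRNP methyltransferase fibrillarin, was at 167 and 251 RPKM (log2 0.58), which is under the threshold before rounding, and *Ncl*, nucleolin, at 404 and 549 RPKM (log2 0.44), while *Npm1* was even at 1914 and 1870 RPKM. Cytoplasmic ribosomal proteins gave 0 of 81 past the threshold, against 1.65% higher and 2.04% lower over all members, and a median of -0.05. The 24 glycolysis genes had a median of 0.19 with *Slc16a3* alone past 1.5-fold (4.17%, against 1.65% of all members). Of 75 nuclear genes of oxidative phosphorylation 2 (2.67%, near the 1.65% of all members) were higher, *Ndufb2* (27.4 and 44.6 RPKM) and *Atp5k* (53.6 and 85.8 RPKM), with a list median of 0.08.

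**Figure D4:**
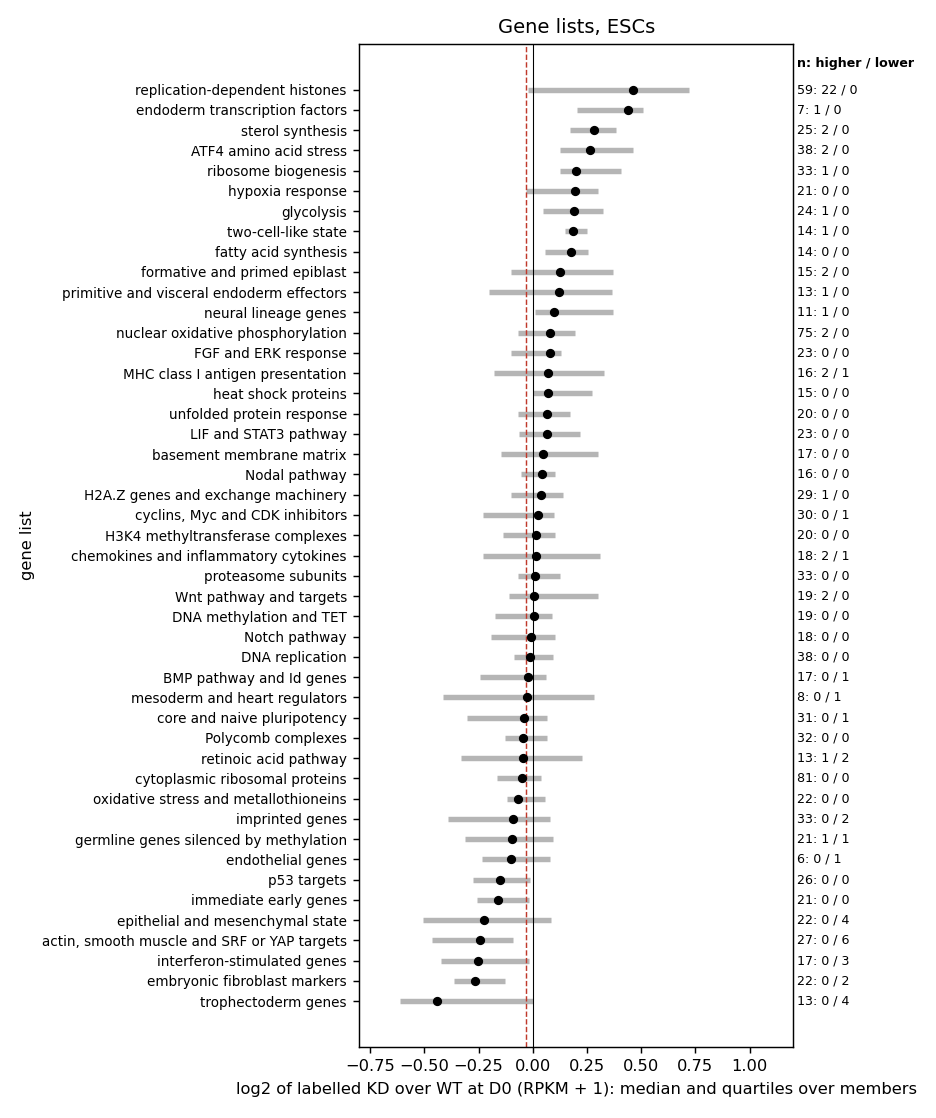
Median (points) and quartiles (grey bars) of log2 for the library labelled KD over WT at D0, for 46 gene lists with 5 or more members. The numbers at the right give members measured and those higher and lower past 1.5-fold, and the dashed red line is the median of all members, -0.03. Replication-dependent histones are at 0.46 and trophectoderm genes at -0.44 with the pseudocount of 1 used here, and at 0.18 and -0.17 with a pseudocount of 5.

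Markers of ESC identity were at like levels. *Pou5f1* was at 421 RPKM in WT and 413 RPKM in the library labelled KD, *Sox2* at 191 and 196 RPKM, *Zfp42* at 203 and 214 RPKM, *Esrrb* at 92.2 and 95.6 RPKM, *Klf4* at 121 and 131 RPKM and *Dppa5a* at 1089 and 1021 RPKM. Of 31 genes of core and naive pluripotency *Pecam1* alone passed 1.5-fold, on the lower side (3.23%, near the 2.04% of all members), and the median was -0.04. *Klf2* was at 123 and 98.6 RPKM in these libraries, against 41.1 RPKM in AP3.

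Lineage factors were mostly low, and few differed. Of 13 listed endoderm transcription factors, 7 passed the filter, *Sox7* (0.486 and 1.15 RPKM) through the library labelled KD alone. For the 6 that reached 1 RPKM in each library the median was 0.34, and *Foxq1* alone passed the threshold (2.15 and 3.97 RPKM). *Gata4* was at 3.24 and 4.94 RPKM and *Gata6* at 2.96 and 4.38 RPKM, while *Sox17* was even at 0.974 and 0.977 RPKM and *Afp* near 0 in both. In AP3 ESCs *Gata4* and *Gata6* were at 12.1 and 9.84 RPKM. In the Wnt list *Lef1* (0.830 and 2.24 RPKM) and *Dkk1* (0.734 and 1.82 RPKM) passed 1.5-fold, but both are members through the library labelled KD alone, and the 16 genes that reached 1 RPKM in each library had 0 past the threshold. Of 11 neural genes *Tubb3*, a neuronal tubulin, was the 1 (9.09%, against 1.65% of all members) that was higher (21.5 and 33.4 RPKM), a call that ended with a pseudocount of 5, and *Pax6* was even at 4.18 and 4.50 RPKM.

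Chromatin regulators of the following lists gave 0 genes past 1.5-fold in either direction, 32 Polycomb genes (median -0.05), 20 genes of H3K4 methyltransferase complexes (median 0.01) and 19 genes of DNA methylation and its removal (median 0.01). Over all members 1.65% were higher and 2.04% lower, shares that give few or no genes in lists of this size. *Zfp57*, of the last list, was just under the threshold at 138 and 91.8 RPKM (log2 -0.58). Of 33 imprinted genes among the members 2 (6.06%, against 2.04% of all members) were lower, *Igf2* and *Mest*, at 17.8 and 8.46 RPKM and at 2.72 and 1.46 RPKM, with a list median of -0.09. Of 21 germline genes silenced by methylation 1 was higher, *Stra8*, and 1 lower, *Smc1b*, a meiotic cohesin (4.64 and 1.99 RPKM). The shares of all members were 1.65% and 2.04%, and the list median was -0.10.

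Immune genes went both ways. Of 17 interferon-stimulated genes 3 (17.6%, against 2.04% of all members) were lower and 0 higher, with a median of -0.25. *Ddx58*, a sensor of viral RNA, was at 5.00 and 2.62 RPKM. *Ifit1* (1.38 and 0.514 RPKM) and *Ifi35* (1.56 and 0.659 RPKM) passed the filter through the WT library alone, and of the 13 genes that reached 1 RPKM in each library *Ddx58* was the only one lower. Of 16 genes of class I antigen presentation 2 were higher and 1 lower, against 1.65% and 2.04% of all members, with a median of 0.07. *H2-K1* and *H2-Q6* (0.759 and 1.82 RPKM) were higher, the latter a member through the library labelled KD alone, and *B2m*, the shared light chain, was lower (22.8 and 13.9 RPKM). Of 18 chemokine and cytokine genes 2 were likewise higher and 1 lower, with a median of 0.01. *Cxcl1* and *Ccl2* were higher, at 8.94 and 15.9 RPKM and at 7.05 and 11.9 RPKM, and *Ccl27a* lower, at 4.47 and 2.39 RPKM. In AP3 ESCs *Cxcl1* and *Ccl2* were at 59.3 and 37.6 RPKM. In EBs *Cxcl1* was listed at 0 in both libraries.

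The same lines as EBs were used to ask how much of the D0 difference is also seen at another state of the lines. This comparison shares no library with that at D0, but it is no replicate of it. Of the 12067 members 167 (1.38%) were higher and 222 (1.84%) lower at D3, with a median of -0.03. Of the 199 entries higher at D0, 20 were higher (10.1% of the D0 list and 11.98% of the D3 list) and 28 lower at D3. Of the 246 lower entries, 30 were lower (12.2% and 13.5%) and 12 higher at D3. Among well expressed entries 57 (0.93%) were higher and 72 (1.17%) lower at D3. Of the 55 that were higher at D0, 6 were higher and 10 lower, and of the 70 that were lower at D0, 8 were lower and 5 higher. With small RNA and histone entries left out, 1 well expressed gene was higher on both days and 4 lower on both days.

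Of the genes that were past 1.5-fold the same way with at least 5 RPKM on each day, and outside the small RNAs, 1 was higher and 8 lower. The higher gene was *Fdps*, at 48.2 and 76.4 RPKM in EBs. *Sept1* was at 33.6 and 15.02 RPKM in EBs (log2 -1.11, after -1.24 at D0), and *Lgals1* at 68.7 and 43.5 RPKM. *Ephx2*, a soluble epoxide hydrolase, was at 8.71 and 4.11 RPKM in ESCs and 33.9 and 18.5 RPKM in EBs. *Morc1*, a germ cell factor that silences transposons, was at 9.56 and 4.05 RPKM and then at 9.39 and 5.05 RPKM. *Inpp5d* was at 8.09 and 4.71 RPKM in EBs.

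*Mageb16* (16.6 and 10.4 RPKM in ESCs, 11.2 and 6.26 RPKM in EBs), *2010001M06Rik* (8.63 and 5.18 RPKM, then 8.81 and 5.47 RPKM) and *Pcsk1n* (7.23 and 3.55 RPKM, then 5.80 and 3.41 RPKM) completed the set. *Pcsk1n* shares its locus in the table with *Eras*, which was at 15.6 and 9.27 RPKM in ESCs, so the 2 values are uncertain. For the 8 lower genes the AP3 values at D0 lay between 1.93 RPKM (*Pcsk1n*) and 135 RPKM (*Lgals1*). *Sept1* was at 23.8 RPKM in AP3 ESCs and *Ephx2* at 9.11 RPKM.

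**Figure D5:**
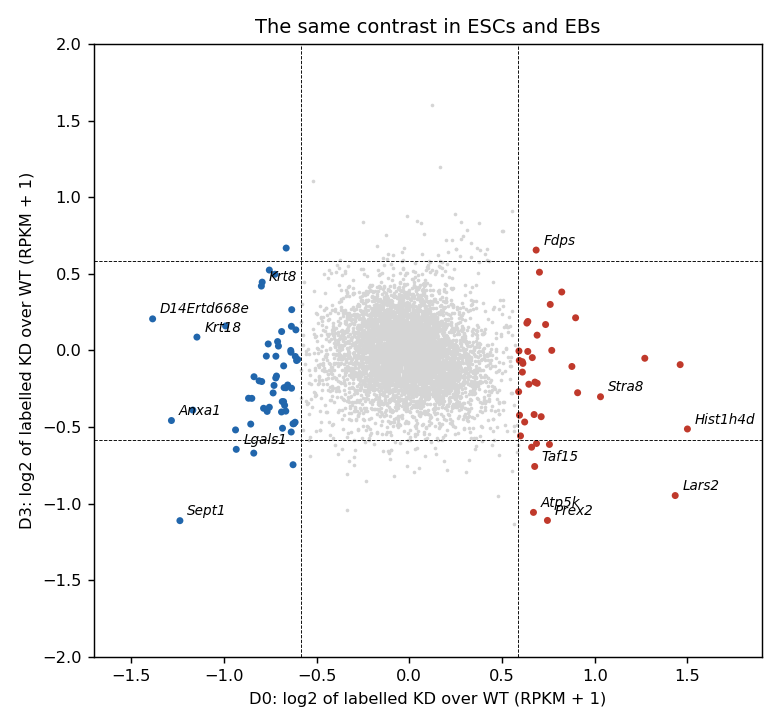
log2 of the label KD over WT at D0 (x) and at D3 (y), both on RPKM + 1, for 6067 well expressed entries without small RNAs. Colored points passed 1.5-fold at D0 (red higher, blue lower), and dashed lines mark 1.5-fold. Sept1 lies past the threshold on the lower side of both axes, Fdps on the higher side of both, and Lars2, Prex2 and Atp5k on opposite sides.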

How the data were processed

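The authors selected poly(A) RNA with oligo(dT), made Illumina TruSeq libraries and deposited, for each gene, the RPKM computed by Cufflinks 1.3.0 after alignment to mm9 with TopHat and Bowtie 0.12.7 (names and versions as in the submitters' processing notes). The table's columns of log2 ratios hold the authors' own comparisons and were not used. A total of 24 symbols were stored as dates. RPKM divides by transcript length, so values of short genes, such as histones and small RNAs, are the least certain. From the RPKM, log2 ratios were computed with a pseudocount of 1 after a filter of 1 RPKM in either library. Named genes were the 15 largest changes each way past 1.5-fold with at least 10 RPKM, members of the 49 gene lists past both limits, genes past 1.5-fold the same way on both days with 5 RPKM, *H2afz* and *H2afv*. Other genes of the lists are given as examples, and some list members are not reported here. The members and the lists were chosen with earlier results of these data known. Depth was estimated from 2818 genes with 1 annotated transcript over 1.5 kb. Positions and strands came from GENCODE on NCBIM37, the assembly of mm9. The scripts were tested on simulated data. Python 3.11.15, numpy 2.4.6 and pandas 2.3.3 were used. The alternatives were pseudocounts of 0.1 and 5, other filters, centring on the median ratio, a 2-fold threshold and summing entries per symbol. Leaving out small RNA and histone entries was added after the data were seen.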

Additional observations from a re-analysis of the deposited data

Results flagged for a closer look

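In 8 well expressed genes outside the small RNAs the difference between the library labelled H2A.Z KD and H2A.Z WT passed 1.5-fold one way in ESCs and the other way in EBs. The difference between the days was not tested, since each condition has 1 library. Subtracting the log2 value at D3 from that at D0 gave 2.38 for *Lars2*, 1.85 for *Prex2*, 1.73 for *Atp5k*, 1.43 for *Taf15*, 1.37 for *Ccdc12*, 1.29 for *Ndufb2* and 1.29 for *2810008D09Rik*, all higher at D0 and lower at D3. It was -1.33 for *Gm15698*, which was lower at D0 and higher at D3. *Taf15* was at 91.7 and 147 RPKM in ESCs and 133 and 78.2 RPKM in EBs. *Atp5k* was at 53.6 and 85.8 RPKM and then at 126 and 60.3 RPKM.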

How the results depend on the processing

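No paired analysis was possible because there was 1 library per condition. The counts at D0 (199 higher, 246 lower; well expressed 55 and 70), the D3 counts (167 and 222) and the 68 list entries past 1.5-fold depend most on the pseudocount and the threshold. With a pseudocount of 0.1 they were 380 and 511 at D0, 358 and 542 at D3 and 114 in the lists. With 5 they were 69 and 55, well expressed 36 and 39, D3 60 and 52, and 21 in the lists. At 2-fold they were 73 and 59, well expressed 15 and 14, D3 34 and 37, and 8 in the lists. Without the filter D3 had 253 higher. Leaving out small RNA and histone entries gave 103 higher at D0 and 36 among well expressed entries. The other settings moved these counts by 1.5 times or less. Of 48 named genes none changed direction, and 11 were under 1.5-fold with a pseudocount of 5, *Acta2*, *B2m*, *Ccl2*, *H2afy2*, *Phgdh*, *Prex2*, *Slc7a1*, *Tubb3*, *Mageb16*, *Pcsk1n* and *2010001M06Rik*. The medians of 10 lists kept their direction under the planned settings. With a pseudocount of 5 the medians were 0.18 for histones (0.70 with 0.1), -0.17 for trophectoderm genes, -0.11 for fibroblast markers, -0.12 for epithelial and mesenchymal genes and -0.11 for interferon-stimulated genes. Without the filter they were -0.08 for trophectoderm genes and -0.16 for fibroblast markers, and with at least 1 RPKM in both libraries -0.21 for trophectoderm genes. With 1 library per condition the spread between cultures is unknown.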

Other observations

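By chromosome, the median log2 of the library labelled H2A.Z KD over WT at D0 lay between -0.07 (chromosome X, 399 entries) and 0.00 (chromosome 8), except for chromosome 6 and the 2 entries of chromosome Y. Chromosome 6 had a median of -0.12 over 553 entries, with 70.5% of them under 0. In 5 equal runs of its entries by position the medians were between -0.16 and -0.10. At 1.5-fold the chromosome had 15 higher and 14 lower entries, and 10 of the higher ones are the copies of *Rn4.5s*. In EBs its median was -0.07. The AP3 library, set against the same WT library, had a median of 0.13 on this chromosome. The distance of the chromosome 6 median from that of all members was -0.10 with a pseudocount of 0.1 and -0.09 as reported.

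Y-linked genes were low in every library of a line labelled male. *Eif2s3y* was at 1.12 RPKM in WT and 0.442 RPKM under the KD label in ESCs and *Ddx3y* at 0.918 and 1.09 RPKM, while *Kdm5d* and *Uty* were under 0.3 RPKM in all 6 libraries. The nuclear RNAs *Malat1* (233 and 178 RPKM) and *Neat1* (29.7 and 21.8 RPKM) were at log2 values of -0.39 and -0.43.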
